A study of Homo sapiens with 3 samples.

Results

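The comparison described here sets the library labelled day 6 against the library labelled day 0 in single cells of H9, an established human embryonic stem cell line. Cells were members if they held at least 1000 unique molecular identifiers (UMIs, each marking a captured RNA molecule) and 500 genes, with no more than 25% of the UMIs mitochondrially encoded. This left 4180 cells labelled day 6 and 2290 labelled day 0, of 8889 such cells in all 3 libraries of the study. UMIs were summed per gene over the kept cells and expressed as counts per 1000000 UMIs (CPM), and 10078 of 31113 listed genes reached 10 CPM in either library and were measured.

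Per the labels, the cells labelled day 6 are H9 cells on differentiation day 6 towards neural progenitor cells, named as differentiated embryonic stem cells or neural progenitors. The cells labelled day 0 are named as human embryonic stem cells. Both labels name the same induction kit, STEMdiff SMADi, and the pluripotency medium mTeSR, and both carry the letter A, which the sources used here do not explain. Each label stands for 1 library from 1 cell line, made with the droplet method inDrop in its TruDrop form. There is no replicate, so no difference has a check against variation between cultures, and every 95% interval covers counting error only.

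Blocking SMAD signalling, the arm that carries TGF-beta and BMP signals into the nucleus, turns pluripotent cells in culture towards neuroectoderm. Such a conversion is known to involve the cell surface, the matrix, growth factor receptors and RNA processing as well as the transcription factors by which it is usually followed. Among these families, metallothioneins bind zinc and other metals, CYP26 enzymes break down retinoic acid, glypicans and sulfation enzymes shape the heparan sulfate that presents growth factors, and metabolic and translation genes serve every cell.

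Of the 10078 genes 1002 (9.94%) had a CPM ratio, labelled day 6 over labelled day 0, of 2 or more, and 614 (6.09%) had a ratio of 0.5 or less. Below, genes past these marks are called 2-fold higher or 2-fold lower, always in the library labelled day 6. The 4-fold marks were passed by 232 genes (2.3%) upwards and 141 genes (1.4%) downwards. The median log2 ratio of all measured genes was 0.11, and each gene list below is read beside these values. These shares depended on level. In the lowest of 5 classes of mean CPM 18.45% of genes were 2-fold higher and 10.76% 2-fold lower, against 5.51% and 4.51% in the highest. Some genes low in level reached 10 CPM only in the library where they were higher, so for lists of such genes these shares are no like background.

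The marker content went against the day labels. POU5F1, the pluripotency factor OCT4, stood at 268.5 CPM labelled day 6 and 2.22 CPM labelled day 0, and PAX6, a neural progenitor factor, at 27.9 CPM labelled day 6 and 175.5 CPM labelled day 0. NANOG, another pluripotency factor, was low in both, at 0.945 CPM labelled day 6 and 2.19 CPM labelled day 0. SOX2, which both cell states express, stood at 810 CPM labelled day 6 and 600.4 CPM labelled day 0. The libraries are therefore called by their labels, and no difference is given as a change over time. Of 20 measured pluripotency markers 16 were 2-fold higher and 0 2-fold lower. Of 41 measured neural progenitor markers 13 were 2-fold higher and 19 2-fold lower.

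Markers of mesoderm, endoderm, neural crest, amnion and trophoblast were low in both libraries. Summed levels were 71.6 CPM labelled day 6 and 73.3 CPM labelled day 0 for 17 mesoderm markers, mostly ACTC1 (52.6 and 50.5 CPM), and 17.5 and 20.7 CPM, in the same order, for 13 endoderm markers, with SOX17 at 0 UMIs in both. Neural crest and placode markers summed to 38.04 CPM labelled day 6 and 49.7 CPM labelled day 0 over 16 genes, with FOXD3 at 0 UMIs labelled day 0. The 14 amnion and trophoblast markers summed to 15.4 CPM labelled day 6 and 4.52 CPM labelled day 0, and KRT7, a simple epithelial keratin, made up 9.45 and 0.176 CPM of these sums. Neuron markers were more abundant. The 15 of them summed to 520.3 CPM labelled day 6 and 479.9 CPM labelled day 0, and TUBB3 was at 0 UMIs labelled day 0 and 0.0242 CPM labelled day 6. The largest term was SYT1, a synaptic vesicle protein, at 212.4 CPM labelled day 6 and 234.4 CPM labelled day 0, seen in 11.4% of thinned cells labelled day 6 and 18.2% labelled day 0. Of 8 measured neuron markers 4 were 2-fold higher and 0 2-fold lower (median log2 ratio 0.94), with 2 to 6 higher under the alternatives that kept the minimum of 10 CPM. The part that such cells have in the differences below was not tested. None of 35 HOX genes, which pattern the trunk, reached 10 CPM, and they summed to 1.62 CPM labelled day 6 and 1.59 CPM labelled day 0.

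The libraries also differed in depth and quality measures. They held 41268018 UMIs labelled day 6 and 28341741 labelled day 0, so that 3 UMIs correspond to 0.0727 and 0.106 CPM. The median cell had 4429 UMIs and 2071 genes in the library labelled day 6 and 8770 UMIs and 3135 genes in that labelled day 0. Cells with under 5% mitochondrial UMIs made up 39.4% of the kept cells labelled day 6 and 20.2% of those labelled day 0. The libraries shared 82 barcodes among kept cells. By the likelihood of their UMIs, 43 cells labelled day 6 were closer to the library labelled day 0 and 82 closer to that labelled day 2, while 13 cells labelled day 0 were closer to another library.

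**Figure D1:**
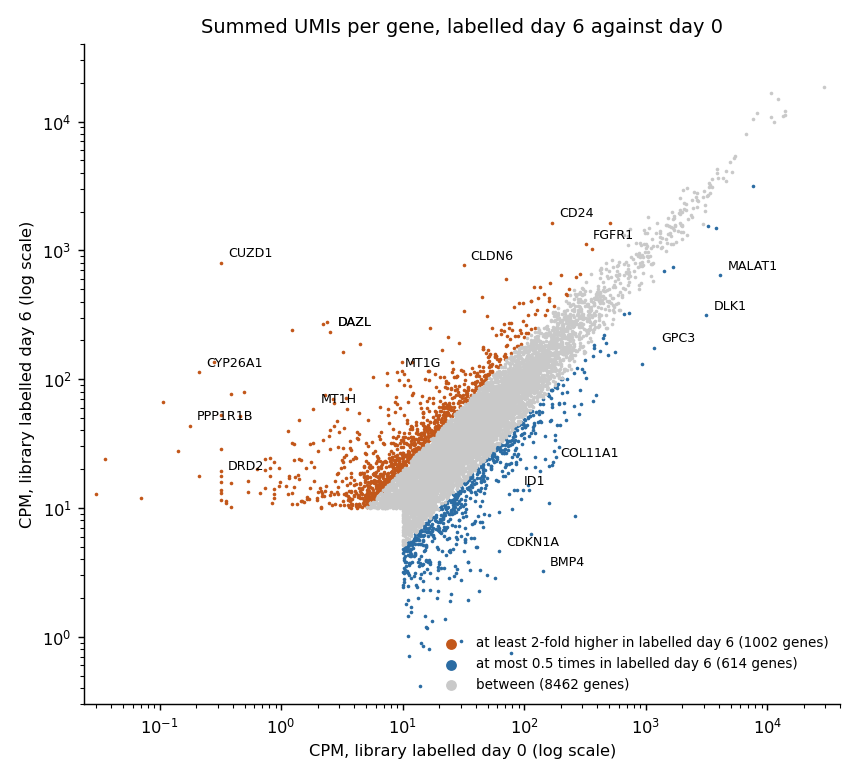
Summed level of every measured gene in CPM on log scales, labelled day 6 (vertical) against labelled day 0 (horizontal), 1 library each; each point is a gene. The 1002 genes 2-fold higher lie above the grey band and the 614 2-fold lower below it, with CUZD1 far to the upper left and BMP4 far to the lower right.

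Metallothioneins illustrate how members of a single gene family differed. Of 6 measured members, all clustered on chromosome 16, 3 were 2-fold higher and 0 2-fold lower (median log2 ratio 1.32). The median was 2.07 over the 4 members with at least 50 CPM and 2.14 over the 7 with at least 1 CPM. It was 1 after the median of genes of like GC content was subtracted. The RefSeq promoters (GRCh38.p14, 250 bases before to 50 after the start, plus strand, 5′ to 3′) are shown for MT1H, which had the largest ratio of the family, and for MT1X and MT2A, whose ratios lay near 1. Capitals mark every match, on either strand, to the core of the metal response element, searched as TGCACNC or TGCGCNC.
MT1H, chr16:56669564-56669863: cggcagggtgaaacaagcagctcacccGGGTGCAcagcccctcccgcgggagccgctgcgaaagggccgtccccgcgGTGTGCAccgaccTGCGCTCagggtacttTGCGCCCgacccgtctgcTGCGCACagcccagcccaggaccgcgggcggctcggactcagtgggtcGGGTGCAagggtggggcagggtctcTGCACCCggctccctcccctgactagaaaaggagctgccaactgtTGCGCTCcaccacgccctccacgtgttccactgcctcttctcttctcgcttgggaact
MT1X, chr16:56682220-56682519: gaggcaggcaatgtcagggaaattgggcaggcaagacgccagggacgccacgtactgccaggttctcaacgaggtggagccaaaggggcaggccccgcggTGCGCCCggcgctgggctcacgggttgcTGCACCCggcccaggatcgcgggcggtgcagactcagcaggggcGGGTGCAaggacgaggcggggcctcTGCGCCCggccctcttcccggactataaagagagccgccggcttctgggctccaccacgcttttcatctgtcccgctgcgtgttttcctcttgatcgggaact
MT2A, chr16:56608334-56608633: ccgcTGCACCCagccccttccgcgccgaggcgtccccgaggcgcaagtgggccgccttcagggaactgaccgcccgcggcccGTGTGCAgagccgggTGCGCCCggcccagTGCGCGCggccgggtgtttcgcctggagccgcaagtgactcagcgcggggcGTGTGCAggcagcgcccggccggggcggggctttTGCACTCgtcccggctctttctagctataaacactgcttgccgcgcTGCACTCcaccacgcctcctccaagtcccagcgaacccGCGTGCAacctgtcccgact
MT1H and MT2A held 8 matches each and MT1X held 4, with no overlaps. Among 35116 RefSeq promoters 29.6% held at least 1 match, 0.601% at least 4 and 0.0199% at least 8.

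MT1H stood at 58.8 CPM labelled day 6 and 1.83 CPM labelled day 0, a 32.0-fold difference (95% interval 24.4 to 43.0). MT1G stood at 113.5 CPM labelled day 6 and 8.997 CPM labelled day 0, 12.6-fold higher (11.12 to 14.36). MT1F stood at 47.8 CPM labelled day 6 and 10.8 CPM labelled day 0, 4.41-fold higher (3.91 to 4.99). The remaining members had ratios under 2: 1.40 for MT1E, 1.18 for MT1X and 1.16 for MT2A, which stood at 280.8 CPM labelled day 6 and 242 CPM labelled day 0. Members thus had ratios either over 4 or of at most 1.40.

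The UMIs of MT1H and MT1G were concentrated in few cells. The 5% of cells with the most UMIs of the gene held 71.5% of the MT1H UMIs and 67.1% of the MT1G UMIs labelled day 6. This share varied widely among genes: labelled day 6 it was 65.0% for HRK (11.3 CPM), 41.6% for CYP26A1 (113 CPM) and 40.4% for DCX (59.9 CPM). After every cell was thinned at random to 1000 UMIs, MT1G was seen in 8.56% (7.73 to 9.45) of cells labelled day 6 and 0.742% (0.433 to 1.19) labelled day 0. MT2A was seen in 20.7% (19.5 to 21.9) of cells labelled day 6 and 12.8% (11.4 to 14.2) labelled day 0. In the third library, labelled day 2, MT1G stood at 92.4 CPM and MT2A at 59.3 CPM. Because these genes are nearly alike in sequence, how reads were divided among them is uncertain.

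Shares of cells are read against genes of tissues absent from such a culture, 15 in all. Their median thinned share was 0% in both libraries, and the highest, MYH6 of heart muscle, was 0.0718% labelled day 6 and 0.131% labelled day 0. Of the 1002 genes 2-fold higher, 4 were seen in at least 50% of thinned cells of that library, 124 in 10 to 50%, 820 in 1 to 10% and 54 in under 1%. For the 614 genes 2-fold lower, the same classes in the library labelled day 0 held 9, 85, 481 and 39 genes. Most genes past 2-fold were thus seen in a minority of cells at this depth. The same classes were not counted over all measured genes, so this cannot be read as a trait of the differences. The 4 widespread genes, named after their values were seen, were CD24, FGFR1 and the growth cone genes BASP1 and DPYSL3. BASP1 was seen in 61.0% of thinned cells labelled day 6 and 29.4% labelled day 0, and DPYSL3 in 80.7% labelled day 6 and 39.2% labelled day 0.

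CD24, a glycosylated surface protein, on chromosome 6 at 106969831 to 106975627, was the most widespread gene past the upward 4-fold mark and is also counted above among the pluripotency markers. It stood at 1633 CPM labelled day 6 and 169.6 CPM labelled day 0, 9.63-fold higher (9.36 to 9.92), and was seen in 80.8% (79.6 to 82.0) of thinned cells labelled day 6 and 16.07% (14.6 to 17.6) labelled day 0. Without thinning the shares were 96.7% and 68.5% in the same order, so the gap in share narrowed with depth. In the library labelled day 2 CD24 stood at 1660 CPM and was seen in 80.45% of thinned cells. CLDN6, a claudin of embryonic epithelia on chromosome 16 at 3014712 to 3020071, stood at 768.5 CPM labelled day 6 and 31.7 CPM labelled day 0, 24.2-fold higher (22.7 to 25.9). It was seen in 46.5% (44.9 to 48.0) of thinned cells labelled day 6 and 1.83% (1.32 to 2.47) labelled day 0. CUZD1, a zona pellucida domain protein, was seen in 48.9% (47.4 to 50.4) of thinned cells labelled day 6 and 0.0437% (0.00111 to 0.243) labelled day 0, within the range of the absent tissues. DAZL, a germ cell RNA-binding protein on chromosome 3 at 16586792 to 16670306, stood at 234.2 CPM labelled day 6 and 2.54 CPM labelled day 0, 92.2-fold higher (73.1 to 118). It was seen in 19.5% (18.3 to 20.8) of thinned cells labelled day 6 and 0.393% (0.180 to 0.745) labelled day 0. The shares of these genes differed in the same direction as their levels. At equal depth a share depends on the level, so it is no separate support. Of 14 measured germline and cancer testis genes 3 were 2-fold higher and 1 2-fold lower.

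**Figure D2:**
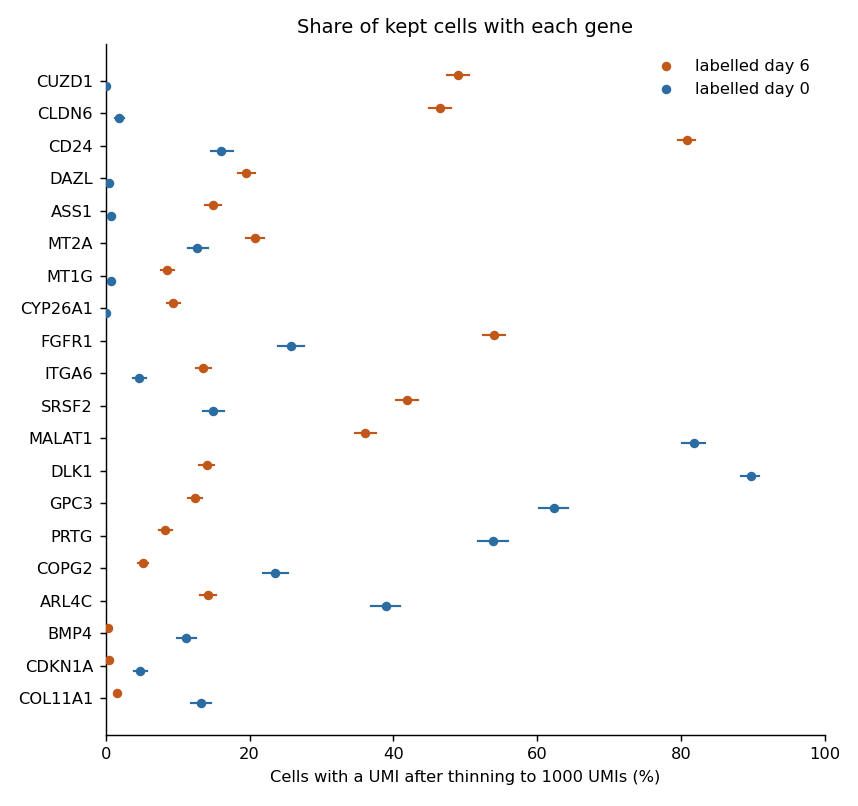
Share of kept cells with a UMI after thinning to 1000 UMIs, in percent, for 20 genes in the libraries labelled day 6 and day 0; bars are exact 95% binomial intervals covering counting error only. CD24 reached 80.8% labelled day 6 against 16.07% labelled day 0, while DLK1 reached 14.02% labelled day 6 against 89.7% labelled day 0.

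Junction and adhesion genes differed in both directions. Of 43 measured cadherins and junction genes 11 were 2-fold higher and 7 2-fold lower (median log2 ratio 0.25). The epithelial members CDH1 (39.7 CPM labelled day 6 and 1.13 CPM labelled day 0) and EPCAM (44.0 and 12.8 CPM in the same order) were among the higher ones. CDH9, a classical cadherin, stood at 75.9 CPM labelled day 6 and 2.29 CPM labelled day 0. The desmosomal plaque gene DSP stood at 26.9 CPM labelled day 6 and 71.1 CPM labelled day 0, and CDH6 at 7.83 CPM labelled day 6 and 43.0 CPM labelled day 0. Epithelial genes thus lay on both sides. Of 60 measured adhesion molecules of the immunoglobulin and leucine-rich families 15 were 2-fold higher and 6 2-fold lower (median 0.19). The tetraspanin gene CD9 stood at 22.7 CPM labelled day 6 and 1.76 CPM labelled day 0, whereas its relative CD82 stood at 3.95 CPM labelled day 6 and 15.4 CPM labelled day 0.

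Collagens were lower more often than higher in the library labelled day 6: of 17 measured 3 were 2-fold higher and 5 2-fold lower (median log2 ratio -0.54). COL11A1, a fibril collagen that associates with COL2A1 in cartilage, stood at 22.7 CPM labelled day 6 and 173.5 CPM labelled day 0, 7.66-fold lower (7.14 to 8.22). COL2A1 stood at 62.1 CPM labelled day 6 and 258.8 CPM labelled day 0, 4.17-fold lower (3.98 to 4.36), and COL9A2, of the same fibrils, at 3.17 CPM labelled day 6 and 14.96 CPM labelled day 0. COL1A2, a chain of type I collagen, lay on the other side at 158.5 CPM labelled day 6 and 48.7 CPM labelled day 0. COL9A3 and COL26A1 were the other lower collagens, and COL1A2, COL13A1 and COL5A1 were the higher ones, the last under 2-fold in 3 alternatives. FBN2, a fibrillin of embryonic matrix, stood at 19.4 CPM labelled day 6 and 133.8 CPM labelled day 0, 6.88-fold lower (6.38 to 7.44). Of 10 measured integrins, the matrix receptors, ITGA6 was higher at 177 CPM labelled day 6 and 45.8 CPM labelled day 0. ITGB1 stood at 40.0 CPM labelled day 6 and 119 CPM labelled day 0, and ITGAV at 9.18 CPM labelled day 6 and 26.3 CPM labelled day 0. Of 45 measured matrix proteases and inhibitors 13 were 2-fold higher and 5 2-fold lower (median 0.29), among them CTSC, a lysosomal protease, at 271 CPM labelled day 6 and 75.1 CPM labelled day 0.

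Heparan sulfate genes held close relatives on opposite sides. Of 28 measured members 7 were 2-fold higher and 6 2-fold lower (median log2 ratio 0.10). GPC3, a glypican that carries heparan sulfate on the cell surface, on chromosome X at 133535745 to 133985895, stood at 174.8 CPM labelled day 6 and 1170 CPM labelled day 0, 6.69-fold lower (6.53 to 6.87). GPC4, another glypican, stood at 407 CPM labelled day 6 and 113 CPM labelled day 0, 3.61-fold higher (3.48 to 3.75). GPC3 was seen in 12.4% (11.4 to 13.4) of thinned cells labelled day 6 and 62.3% (60.2 to 64.3) labelled day 0, and GPC4 in 30.2% (28.8 to 31.6) labelled day 6 and 10.9% (9.67 to 12.3) labelled day 0. The 2 glypicans thus differed in opposite directions, and their shares, which depend on level at equal depth, had the same order as their levels. The enzymes that place sulfate were likewise divided: HS3ST5 stood at 15.9 CPM labelled day 6 and 0.318 CPM labelled day 0, and NDST1 at 43.7 and 14.8 CPM in the same order. HS6ST2 stood at 23.9 CPM labelled day 6 and 148 CPM labelled day 0. SULF1, which removes sulfate outside the cell, stood at 9.38 CPM labelled day 6 and 62.6 CPM labelled day 0.

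Signalling genes were next examined by role, beginning with retinoic acid. Of 9 measured members 3 were 2-fold higher and 2 2-fold lower (median log2 ratio 0.32). The promoter of CYP26A1 is shown because the gene is a known retinoic acid target and had the largest ratio of the list. It is the second of 2 starts in the RefSeq table (GRCh38.p14, plus strand, 5′ to 3′), and capitals mark a direct repeat with a spacer of 5 bases. The repeat was searched on both strands as any pair of the half-sites AGTTCA and AGGTCA in the same direction with 5 bases of any kind between them.
CYP26A1, chr10:93073643-93073942: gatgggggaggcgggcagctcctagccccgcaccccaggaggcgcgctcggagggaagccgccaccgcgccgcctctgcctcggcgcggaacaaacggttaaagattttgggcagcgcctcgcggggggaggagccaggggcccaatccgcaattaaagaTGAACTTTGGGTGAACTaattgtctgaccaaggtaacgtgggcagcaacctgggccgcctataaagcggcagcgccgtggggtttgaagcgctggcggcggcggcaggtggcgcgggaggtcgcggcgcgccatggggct
Of the 35116 promoters 7 (0.0199%) held such a match.

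CYP26A1 stood at 113 CPM labelled day 6 and 0.212 CPM labelled day 0, and was seen in 9.35% (8.49 to 10.3) of thinned cells labelled day 6 and 0% (0 to 0.161) labelled day 0. DHRS3, which turns retinal back into retinol, stood at 31.3 CPM labelled day 6 and 1.73 CPM labelled day 0, 18.1-fold higher (13.6 to 24.6). RARG, a retinoic acid receptor, stood at 18.6 CPM labelled day 6 and 4.45 CPM labelled day 0, 4.17-fold higher (3.45 to 5.08). The 2 cytosolic carriers of retinoic acid lay the other way. CRABP1 stood at 54.0 CPM labelled day 6 and 281 CPM labelled day 0, 5.21-fold lower (4.97 to 5.46), and CRABP2 at 76.7 CPM labelled day 6 and 157 CPM labelled day 0, 2.05-fold lower (1.96 to 2.14) but under 2-fold in 4 alternatives. In the library labelled day 2, CYP26A1 stood at 24.6 CPM, DHRS3 at 29.1 CPM and CRABP1 at 166 CPM. The enzymes CYP26A1 and DHRS3 and the receptor RARG were thus higher, and both carriers lower, in the library labelled day 6.

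**Figure D3:**
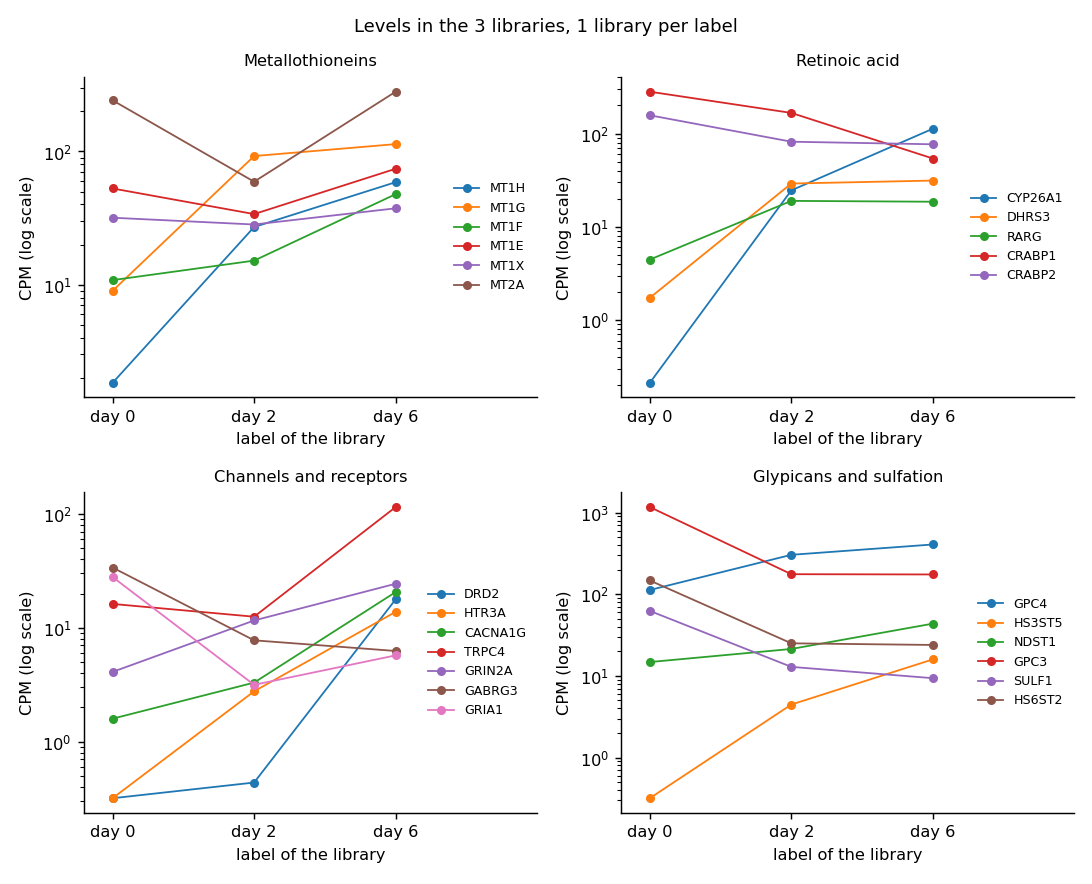
Level in CPM (log scale) of genes of 4 families in the 3 libraries by label, 1 library per label; lines join the values of a gene. From day 0 over day 2 to day 6 by label, MT1H had 1.83, 27.1 and 58.8 CPM and GPC3 had 1170, 176 and 175 CPM.

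Members of the FGF and ERK list differed in both directions. Of 28 measured members 6 were 2-fold higher, 7 2-fold lower and 15 between (median -0.43). The receptor FGFR1, on chromosome 8, stood at 1121 CPM labelled day 6 and 322 CPM labelled day 0, 3.48-fold higher (3.40 to 3.56), and was seen in 54.0% of thinned cells labelled day 6 and 25.8% labelled day 0. FGFR2 stood at 158 CPM labelled day 6 and 52.6 CPM labelled day 0, and FGFR3 at 23.3 CPM labelled day 6 and 8.61 CPM labelled day 0. IL17RD, which dampens FGF signalling, stood at 8.87 CPM labelled day 6 and 51.5 CPM labelled day 0, 5.81-fold lower (5.18 to 6.54). DUSP6, a phosphatase that inactivates ERK, stood at 4.56 CPM labelled day 6 and 24.6 CPM labelled day 0, and the ERK target ETV5 at 3.17 CPM labelled day 6 and 10.9 CPM labelled day 0. The receptors FGFR1, FGFR2 and FGFR3 were thus higher, whereas the feedback genes IL17RD, DUSP6, SPRY2 and DUSP4 were lower. FLRT3, of the same list, was also higher, at 32.2 CPM labelled day 6 and 10.3 CPM labelled day 0.

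Other signalling lists had more members lower than higher in the library labelled day 6. In the TGF-beta and BMP list 2 of 35 measured were 2-fold higher and 6 2-fold lower (median 0.03). The ligand BMP4, on chromosome 14, stood at 3.22 CPM labelled day 6 and 142 CPM labelled day 0 and was seen in 0.287% (0.148 to 0.501) of thinned cells labelled day 6 and 11.2% (9.92 to 12.5) labelled day 0. ID1, a common BMP target, stood at 13.8 CPM labelled day 6 and 87.3 CPM labelled day 0, 6.34-fold lower (5.78 to 6.96). In the hedgehog list 0 of 11 measured were 2-fold higher and 5 2-fold lower (median -0.70), among them the transcription factor GLI3 at 120 CPM labelled day 6 and 297 CPM labelled day 0. The lower hedgehog members include GPC3, given above as a glypican. In the Notch list 0 of 24 were 2-fold higher and 4 2-fold lower (median -0.20). Among these lower genes DLK1 is also in the imprinted list, and DLL1 and HES5 are also neural progenitor markers, so the lists are not separate counts. The Hippo and YAP targets had 2 of 21 2-fold higher and 5 2-fold lower (median -0.39). Of the lower ones CTGF is also in the growth arrest list and CYR61 in that of immediate early genes. CTGF stood at 20.4 CPM labelled day 6 and 103 CPM labelled day 0, 5.07-fold lower (4.69 to 5.48), and AMOTL2 at 20.8 CPM labelled day 6 and 122 CPM labelled day 0, 5.85-fold lower (5.42 to 6.31).

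WNT genes lay on both sides. Of 28 measured 4 were 2-fold higher and 7 2-fold lower (median -0.21). The higher ones were the receptors ROR1 (364 CPM labelled day 6 and 82.7 CPM labelled day 0), FZD7 (387 and 98.6 CPM in the same order), LRP4 and FZD8. FZD8 was under 2-fold, with a log2 ratio of 0.53, when cells were thinned to 1000 UMIs. WLS, the carrier of WNT proteins to the surface, stood at 29.6 CPM labelled day 6 and 192 CPM labelled day 0, 6.49-fold lower (6.10 to 6.91), and the ligand WNT5B at 5.02 CPM labelled day 6 and 40.6 CPM labelled day 0. The receptors FZD1, FZD3 and ROR2 were also 2-fold lower, each of them under 2-fold in 1 alternative.

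Ion channel and neurotransmitter receptor genes were more often higher in the library labelled day 6. Of 71 measured 23 were 2-fold higher and 6 2-fold lower (median log2 ratio 0.41). Most were low in level, and some, such as DRD2 and HTR3A, reached 10 CPM only labelled day 6. The part of that minimum in these counts was not tested. DRD2, a dopamine receptor, stood at 17.8 CPM labelled day 6 and 0.318 CPM labelled day 0, and HTR3A, a serotonin-gated channel, at 13.8 CPM labelled day 6 and 0.318 CPM labelled day 0. TRPC4, a cation channel, stood at 115 CPM labelled day 6 and 16.2 CPM labelled day 0, 7.10-fold higher (6.45 to 7.83), and was seen in 7.80% of thinned cells labelled day 6 and 1.66% labelled day 0. GRIN2A, a subunit of NMDA glutamate receptors, stood at 24.4 CPM labelled day 6 and 4.09 CPM labelled day 0. The AMPA subunit GRIA1 lay the other way, at 5.72 CPM labelled day 6 and 27.9 CPM labelled day 0, as did the GABA receptor subunit GABRG3, at 6.25 CPM labelled day 6 and 33.8 CPM labelled day 0.

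The median of the neuron markers (0.94) lay on the same side as that of the channel list. It was -0.14 over the 3 of them with at least 50 CPM, of which 1 was 2-fold higher. DCX, a microtubule protein of young neurons, stood at 59.9 CPM labelled day 6 and 9.53 CPM labelled day 0. STMN2 stood at 41.95 CPM labelled day 6 and 3.28 CPM labelled day 0, whereas SYT1 stood at 212.4 and 234.4 CPM in the same order. The part of neuron markers in the channel and secreted protein counts was not tested.

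Secreted neural proteins and guidance genes also had medians above that of all genes. Of 16 measured secreted neural proteins 8 were 2-fold higher and 2 2-fold lower (median 1.25), but CUZD1 and SHISA3 had been placed in that list with their values known. Without them 6 of 14 were 2-fold higher and 2 2-fold lower (median 0.87), and with them the median was between 0.84 and 0.87 in 4 alternatives. NPTX1, a neuronal pentraxin, stood at 76.4 CPM labelled day 6 and 0.388 CPM labelled day 0, and PDYN, a precursor of opioid peptides, at 27.5 CPM labelled day 6 and 0.141 CPM labelled day 0. PPP1R1B, a phosphatase inhibitor known from dopamine signalling, stood at 43.6 CPM labelled day 6 and 0.176 CPM labelled day 0 and was seen in 5.36% of thinned cells labelled day 6 and 0% (0 to 0.161) labelled day 0. Of 42 measured axon guidance genes 10 were 2-fold higher and 4 2-fold lower (median 0.67), and the median was 0.33 after genes of like GC content were subtracted. SEMA3E, a secreted semaphorin, stood at 106 CPM labelled day 6 and 28.3 CPM labelled day 0, and DRAXIN at 126 CPM labelled day 6 and 42.4 CPM labelled day 0. Ephrin receptors were divided: EPHA1 stood at 13.4 CPM labelled day 6 and 0.529 CPM labelled day 0, and EPHA2 at 7.68 CPM labelled day 6 and 38.4 CPM labelled day 0.

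**Figure D4:**
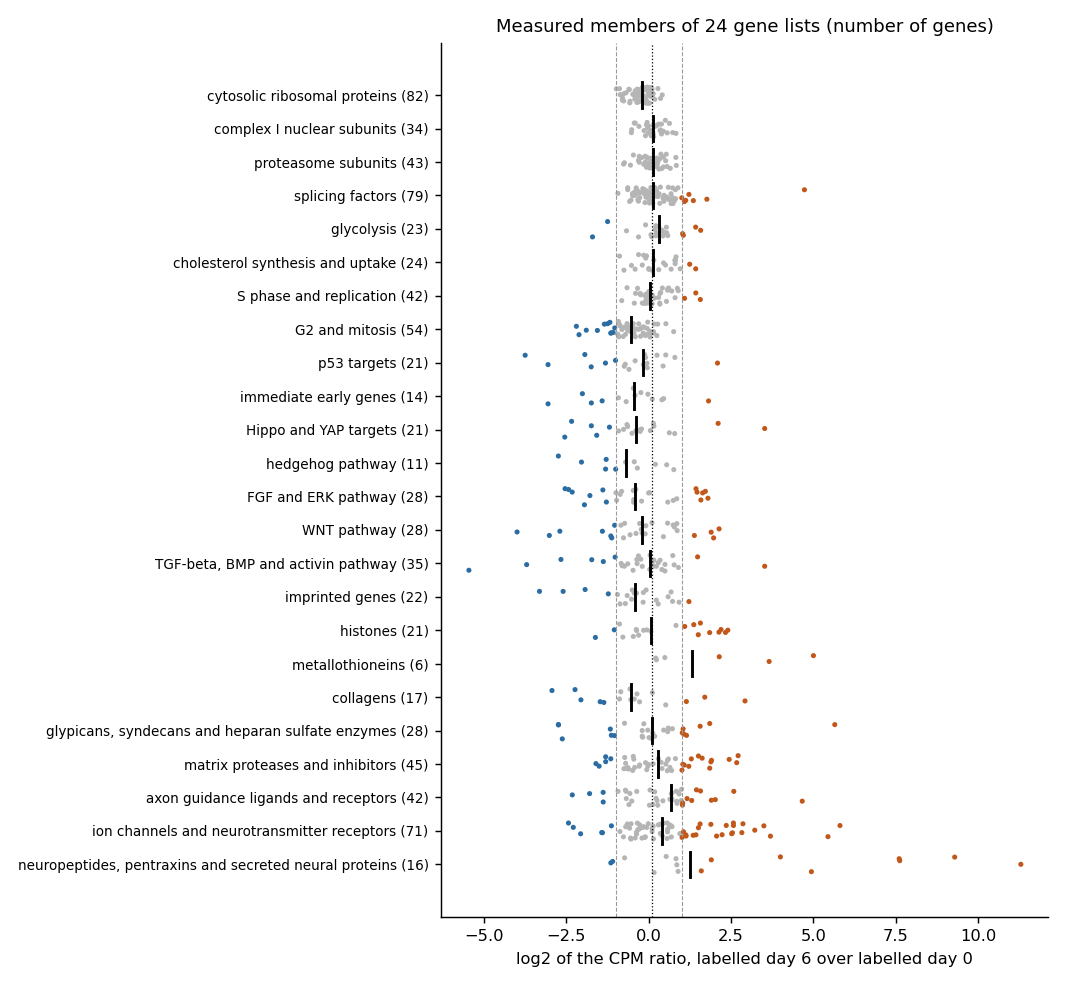
Log2 of the CPM ratio, labelled day 6 over labelled day 0, for each measured member of 24 lists, with the number of members in brackets; black bars are list medians, the dotted line is the median of all measured genes (0.11) and dashed lines mark 2-fold. Ribosomal protein, complex I and proteasome genes lie within 2-fold, while channels and secreted neural proteins reach far to the right.

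Several lists of genes that serve every cell had few or no members past 2-fold. None of 82 cytosolic ribosomal protein genes, 34 complex I subunits, 25 subunits of complexes II to IV, 43 proteasome subunits or 30 genes of the pentose phosphate pathway and nucleotide synthesis was past 2-fold in either direction. Their median log2 ratios were -0.21, 0.12, 0.07, 0.12 and 0.05 in that order. Of 15 mitochondrially encoded genes 0 were 2-fold higher and 2 2-fold lower (median -0.11): the ribosomal RNA MT-RNR1, at 3166 CPM labelled day 6 and 7644 CPM labelled day 0, and MT-ATP8, at 22.4 CPM labelled day 6 and 77.3 CPM labelled day 0. Of 20 genes matched as ATP synthase subunits 1 was 2-fold lower, the pseudogene ATP5EP2, whose counts are uncertain because of its parent gene. Of 72 mitochondrial ribosomal protein genes 2 were 2-fold higher, MRPL4 and MRPL9, and 0 2-fold lower. After genes of like GC content were subtracted, 3 ribosomal protein genes were 2-fold lower and 1 complex I gene 2-fold higher. Of 60 translation factors 1, EIF3B, was 2-fold higher, though not under 4 of the alternatives, and of 33 tRNA synthetases 1, TARS, at 170 CPM labelled day 6 and 46.0 CPM labelled day 0.

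Central metabolism held single exceptions. Of 23 measured glycolysis genes 4 were 2-fold higher and 2 2-fold lower (median 0.31). The glucose transporters SLC2A3 (64.8 CPM labelled day 6 and 211 CPM labelled day 0) and SLC2A1 (42.4 and 101 CPM in the same order) were the lower ones. PDK1, which restrains entry of pyruvate into mitochondria, stood at 32.0 CPM labelled day 6 and 10.7 CPM labelled day 0. GAPDH was also among the higher ones but has many near-identical pseudogenes, so its counts are uncertain. ASS1, an enzyme of arginine synthesis, stood at 136 CPM labelled day 6 and 9.88 CPM labelled day 0, 13.8-fold higher (12.2 to 15.6). Of 162 measured solute carriers 21 were 2-fold higher and 10 2-fold lower (median 0.25), led by the zinc transporter SLC30A3 at 43.5 CPM labelled day 6 and 2.72 CPM labelled day 0.

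Lists of stress genes lay on both sides. Of 21 measured p53 targets 1 was 2-fold higher and 6 2-fold lower (median -0.16). CDKN1A, a cell cycle inhibitor, stood at 4.63 CPM labelled day 6 and 62.3 CPM labelled day 0 and was seen in 0.455% (0.274 to 0.709) of thinned cells labelled day 6 and 4.76% (3.92 to 5.71) labelled day 0. BTG2 stood at 3.34 CPM labelled day 6 and 27.8 CPM labelled day 0, 8.31-fold lower (6.93 to 10.04), and GADD45A at 23.9 CPM labelled day 6 and 91.8 CPM labelled day 0, 3.83-fold lower (3.56 to 4.13). TP53I3, an oxidoreductase, was the higher one, at 67.2 CPM labelled day 6 and 15.8 CPM labelled day 0. Among 14 measured immediate early genes, which handling can also induce, 1 was higher and 4 lower (median -0.44), with EGR1 at 9.43 CPM labelled day 6 and 25.1 CPM labelled day 0. Of 28 cytosolic heat shock genes HSP90AA1 alone was 2-fold lower, at 1490 CPM labelled day 6 and 3805 CPM labelled day 0, and 0 were 2-fold higher. Of 11 measured genes of growth arrest and senescence, which share CDKN1A and GADD45A with the p53 targets, 1 was 2-fold higher and 4 2-fold lower (median -0.54). Of 16 measured cell death regulators 3 were 2-fold higher and 1 2-fold lower (median -0.02). The higher ones were HRK (11.3 CPM labelled day 6 and 1.45 CPM labelled day 0), BMF (14.8 and 2.33 CPM in the same order) and CASP9, and the lower one was BCL2, which restrains cell death. HIF targets had 2 of 16 2-fold higher and 2 2-fold lower (median -0.19), and genes of the interferon response and antigen presentation 2 of 13 higher and 1 lower (median -0.17). Of 20 genes of folding in the endoplasmic reticulum 0 were 2-fold higher and 2 2-fold lower (median 0.08), among them HSP90B1 at 325.5 CPM labelled day 6 and 729.9 CPM labelled day 0. After genes of like GC content were subtracted HSP90B1 was under 2-fold, with a log2 ratio of -0.93.

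The list of G2 and mitosis lay apart from all genes, while that of S phase lay near them. Of 54 measured G2 and mitosis genes 0 were 2-fold higher and 11 2-fold lower (median -0.53). After the GC subtraction 6 were 2-fold lower, with a median of -0.51. SMC4, a condensin subunit, stood at 48.5 CPM labelled day 6 and 222 CPM labelled day 0, 4.58-fold lower (4.36 to 4.82), and NUF2, a kinetochore protein, at 16.3 CPM labelled day 6 and 60.8 CPM labelled day 0. Of 42 measured S phase genes 3 (7.14%) were 2-fold higher, under the 9.94% of all genes, and 0 2-fold lower (median 0.04). Among the higher ones was the helicase subunit MCM5, at 138 CPM labelled day 6 and 51.1 CPM labelled day 0. The G1 cyclins lay apart: CCNE1 stood at 34.7 CPM labelled day 6 and 11.01 CPM labelled day 0, and CCND1 at 16.5 CPM labelled day 6 and 58.6 CPM labelled day 0.

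Single RNA processing genes differed, while all listed splicing factors together summed to 20826 CPM labelled day 6 and 19139 CPM labelled day 0. Of 79 measured splicing factors 7 (8.86%) were 2-fold higher, a share near that of all genes, and 0 2-fold lower (median 0.12). SRSF2, on chromosome 17 at 76734115 to 76737374, stood at 559 CPM labelled day 6 and 164.5 CPM labelled day 0, 3.40-fold higher (3.29 to 3.51), and was seen in 41.9% of thinned cells labelled day 6 and 14.9% labelled day 0. SRSF6 stood at 147 CPM labelled day 6 and 57.6 CPM labelled day 0. ESRP1, an epithelial splicing regulator, stood at 19.6 CPM labelled day 6 and 0.741 CPM labelled day 0. MALAT1, a nuclear RNA of splicing speckles on chromosome 11 at 65497688 to 65506516, lay the other way, at 639 CPM labelled day 6 and 4117 CPM labelled day 0, 6.45-fold lower (6.36 to 6.53). It was seen in 36.1% (34.6 to 37.5) of thinned cells labelled day 6 and 81.8% (80.2 to 83.4) labelled day 0. Among cells with at least 5% mitochondrial UMIs, which leaves out the cells low in them that were more frequent labelled day 6, the log2 ratio of MALAT1 was -2.72, and among cells with at most 10% it was -2.52, while in all kept cells it was -2.69. NEAT1, the RNA of paraspeckles, stood at 5.96 CPM labelled day 6 and 27.2 CPM labelled day 0.

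Imprinted genes, expressed from a single parental copy, were lower more often than higher: of 22 measured 1 was 2-fold higher and 4 2-fold lower (median -0.40). DLK1, a Notch-related membrane protein on chromosome 14 at 100725705 to 100738224, was seen in 14.02% (12.98 to 15.1) of thinned cells labelled day 6 and 89.7% (88.4 to 90.9) labelled day 0. Its UMIs labelled day 6 were uneven, with 64.3% in the 5% of cells that held the most, against 20.7% labelled day 0. MEG3, the non-coding RNA of the same imprinted cluster, stood at 5.02 CPM labelled day 6 and 19.1 CPM labelled day 0, 3.81-fold lower (3.24 to 4.50). PLAGL1, a zinc finger gene, stood at 3.39 CPM labelled day 6 and 20.5 CPM labelled day 0, 6.05-fold lower (5.03 to 7.33). Of 21 measured histone genes 9 were 2-fold higher and 2 2-fold lower (median 0.07), among them HIST1H2BD at 34.3 CPM labelled day 6 and 6.49 CPM labelled day 0. Histone genes are many and alike, and most of their transcripts lack a poly(A) tail, so these counts are uncertain. Of the ZNF zinc finger genes 17 of 246 measured were 2-fold higher and 5 2-fold lower (median 0.15).

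Ratios followed the base composition of the transcripts. For 9571 genes (94.97% of those measured) with a GENCODE transcript, the 1915 genes in the lowest of 5 classes of GC content had a median log2 ratio of -0.25, with 2.98% of genes 2-fold higher and 9.24% 2-fold lower. The highest class had a median of 0.47, with 18.6% 2-fold higher and 2.98% 2-fold lower. Medians by chromosome were highest for chromosome 19 (0.34) and lowest for chromosome 4 (-0.14), and whether they follow GC content was not tested. With the median of genes of like GC content subtracted, 726 genes were 2-fold higher and 515 2-fold lower. Medians of lists above also moved with this subtraction. That of retinoic acid went from 0.32 to -0.02, of matrix proteases and inhibitors from 0.29 to 0.05 and of channels and receptors from 0.41 to 0.21. Medians that became lower still were those of hedgehog (-0.70 to -1.01), collagens (-0.54 to -0.74) and Hippo and YAP targets (-0.39 to -0.62). The part of this trend in the families above was not tested beyond these adjusted values and those given there.

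**Figure D5:**
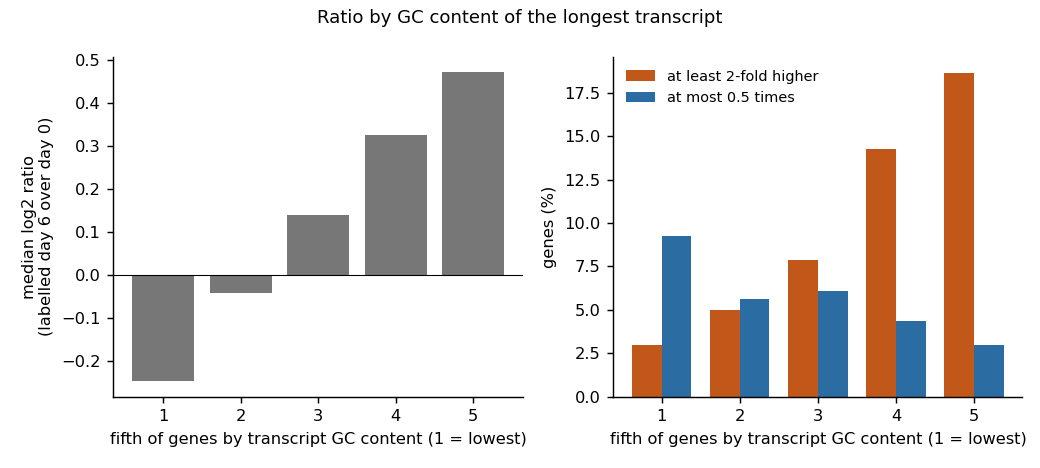
Measured genes in 5 equal classes of transcript GC content, lowest first; the left panel gives the median log2 ratio, labelled day 6 over labelled day 0, and the right panel the percentage of genes 2-fold higher or 2-fold lower. The median runs from -0.25 in the lowest class to 0.47 in the highest.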

How the data were processed

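For each library the authors deposited whole-number counts, each for a gene in a barcode; per the labels the method was inDrop in its TruDrop form, so the counts were taken as UMI counts. Alignment with STAR and the build hg38 come from the submitters' processing notes. Not given in the sources used here are the annotation, the strand setting, the barcode filter and the collapsing of duplicate reads. Kept cells had at least 1000 UMIs, 500 genes and at most 25% mitochondrial UMIs. Doublets were kept and no caller was run; leaving out the 5% of cells with the most UMIs was an alternative.

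Counts were summed per library and divided by the library total (CPM), and genes with at least 10 CPM in either library were compared by the CPM ratio, labelled day 6 over day 0. The intervals (95%) are exact conditional binomial for ratios and Clopper-Pearson for shares of cells thinned to 1000 UMIs. With 1 library per label no test was made. Floors correspond to 3 UMIs. PCR or barcode errors are not covered, only counting error.

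Genes are named by a rule. Among genes with at least 50 CPM outside the marker lists, it takes the 25 highest and 25 lowest by the interval bound nearest to 1. To these it adds up to 4 members in each direction per list, 5 genes for the check of labels and up to 6 genes by share in each direction, of which those that show the families are given here; further list members were named after their values were seen, to complete a family. The members, the 87 lists and the rule were chosen with earlier results of these data known. H1FX-AS1, which matched the histone list by name, was taken out after the data were seen. Where symbols are alternatives the first found was used, and 5 list symbols were not found. Positions come from GENCODE 29 (GRCh38); 9549 of 10078 measured symbols matched. Promoters come from RefSeq (GRCh38.p14).

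Calculations used Python 3.11.15, numpy 2.4.6, scipy 1.17.1, pandas 2.3.3 and, for TMM factors as an alternative scaling, edgeR 4.0.16. The ratio and thinning calculations were tested on simulated data, and the list calculations were not. Other alternatives were median-of-ratios factors, totals less mitochondrial and ribosomal protein UMIs, the mean of each cell's CPM, thinned sums, other cell and gene minimums, and leaving out cells like another library. Leaving out shared barcodes and subtracting the median of genes of like GC content were chosen after seeing the data.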

Additional observations from a re-analysis of the deposited data

Results flagged for a closer look

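Barcodes left out by the filters, which no comparison above uses, carried the leading genes of the library labelled day 6. These were 11893 barcodes with 10224487 UMIs labelled day 6 and 9001 barcodes with 4490232 UMIs labelled day 0. In them CUZD1 stood at 687.6 CPM labelled day 6 and 0.445 CPM labelled day 0, the claudin gene CLDN6 at 642.8 CPM labelled day 6 and 26.5 CPM labelled day 0, and the germ cell gene DAZL at 180.9 CPM labelled day 6 and 1.34 CPM labelled day 0. They come from the same 2 libraries and are no independent measurement, and whether they hold damaged cells or free RNA was not tested.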

How the results depend on the processing

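No paired analysis was possible because each label has 1 library and no result comes from a test. The counts of genes past 2-fold depended on the minimum level: with 50 CPM in either library 325 genes were 2-fold higher and 217 2-fold lower, of 4041 measured, and with 1 CPM 2315 and 1546, of 16639. Under the other alternatives they stayed within 1.5 times, from 726 (GC subtraction) to 1101 (cells thinned to 1000 UMIs) higher genes and from 515 (GC subtraction) to 828 (thinned cells) lower ones. Of 336 genes named by the rule or given above that were past 2-fold 0 changed sign under any alternative, and 39 were under 2-fold in at least 1. Of the genes given above these were EIF3B, NANOG, CRABP2, COL5A1, FZD1, FZD3, FZD8, ROR2 and HSP90B1. Ratios of genes given above that moved by over 1.5 times follow, and the cause was not tested. With at most 10% mitochondrial UMIs the log2 ratio was 12.6 in place of 11.3 for CUZD1, 7.23 in place of 5.14 for CDH1, 8.06 in place of 9.06 for CYP26A1, 5.87 in place of 6.53 for DAZL, 7.03 in place of 5.81 for DRD2, 5.62 in place of 4.66 for EPHA1, 8.60 in place of 7.95 for PPP1R1B, 2.72 in place of 1.90 for SEMA3E, 3.20 for SLC30A3 and -1.45 in place of -2.19 for NEAT1. With thinned cells it was 9.52 in place of 7.62 for NPTX1, 7.29 in place of 5.65 for HS3ST5, 6.04 in place of 7.61 for PDYN, 3.91 for EPHA1, 5.72 in place of 4.73 for ESRP1, 9.94 for CYP26A1, 9.07 for PPP1R1B, 5.84 for DAZL, 4.38 in place of 3.79 for ASS1, 7.95 in place of 6.92 for POU5F1, -1.60 in place of -2.24 for COL9A2, -0.81 in place of -1.41 for FZD1, 0.53 in place of 1.39 for FZD8 and -0.55 in place of -1.21 for NANOG. With the mean of each cell's CPM it was 7.84 for CYP26A1, 6.99 for DRD2, 6.36 for HS3ST5 and 8.58 for PPP1R1B. For HRK it was 3.65 with this mean and 5.04 with thinned cells, in place of 2.97. BMF had 5.13 in place of 2.67 with thinned cells. STMN2 had 4.82 in place of 3.68 with at most 10% mitochondrial UMIs. The median of the secreted neural list was 0.84 to 0.87 in 4 alternatives (the mean of each cell's CPM, thinned cells, at most 10% mitochondrial UMIs and a minimum of 50 CPM) and 0.87 without CUZD1 and SHISA3, which was chosen after seeing the data. That of the metallothioneins was 2.07 with a minimum of 50 CPM, 2.14 with 1 CPM and 1 after the GC subtraction, in place of 1.32. That of the neuron markers was -0.14 with a minimum of 50 CPM, in place of 0.94. Cells closer to another library were picked by expression, so leaving them out widens differences by construction. Levels under 0.0727 CPM labelled day 6 and 0.106 CPM labelled day 0 are below 3 UMIs.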
